A study of Rattus norvegicus with 12 samples.

Results

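Protein phosphatase 2A (PP2A) is a serine/threonine phosphatase assembled from a scaffold, a catalytic and a regulatory subunit. The scaffold (Ppp2r1a, Ppp2r1b) holds the catalytic subunit (Ppp2ca, Ppp2cb), and the regulatory subunit, of the B55 family (Ppp2r2 genes) or the B56 family (Ppp2r5 genes), directs the enzyme to its substrates. In brain it is a main phosphatase of the microtubule protein tau and counters kinases of growth and stress signalling. The nuclear proteins encoded by Anp32a and Set are known as its inhibitors.

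The members were the probe sets whose single gene symbol in the array annotation was Ppp2ca, Ppp2cb, Ppp2r1a, Ppp2r1b, Ppp2r2a, Ppp2r2b, Ppp2r2c, Ppp2r5a, Ppp2r5c or Set. This gave 12 of the 15923 probe sets of the array, for 9 of the 10 genes. No probe set carried Set as its single symbol, so no array signal was assigned to Set. Of the 12 probe sets, 10 lay among the brighter 60% that were tested, and each of the 9 genes kept 1 tested probe set, with a second one for Ppp2r5c. The 2 probe sets below that limit were the second ones of Ppp2r2a and Ppp2r2c. On the RefSeq assembly GRCr8 the 9 genes lie on 9 different chromosomes.

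The samples were hippocampi of young rats, each sample a pool of 3 to 4 animals on 1 array, in 4 groups of 3. Rats received KA, read here as the seizure-inducing glutamate agonist kainic acid, or the vehicle phosphate-buffered saline (PBS) on postnatal day 20. Afterwards they lived alone for 10 days (PBS_isolated and KA_isolated), or in large enriched cages of 8 rats (PBS_enriched and KA_enriched). No duration was recorded here for the enriched housing, so equal age at collection could not be checked. The labels used here name no strain or sex, and no group had ordinary group housing, so enrichment and isolation cannot be told apart. They also do not say which cage or litter a pool came from, so p-values measure only the spread between pools, and effects of a cage that pools share and of housing cannot be told apart.

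Array medians ran from 70.06 to 74.1 signal units, and correlations of log2 values between arrays from 0.9713 to 0.99. KA_enriched replicate 3 stood apart, with the lowest mean correlation to the others (0.9772) and the highest log2 ratio of 3 prime to 5 prime beta-actin signal, a sign of RNA quality (0.856 against 0.361 to 0.639 elsewhere). Of 10 neuron markers 8 were on the array and all 8 lay above the limit for testing, among them the granule cell factor Prox1, and so did all 6 astrocyte and all 10 microglia and macrophage markers. The summed microglial signal was 934 to 977.2 in PBS_isolated and 1379 to 1713 in KA_isolated, and spread from 868.5 to 1508 in the enriched groups. The summed astrocyte signal was 8658 to 9217, 9552 to 10090 and 8469 to 10030 in the same order. For neurons the sums were 8452 to 9220, 8197 to 8455 and 8187 to 9151. Summed choroid plexus signal reached 2822 in a PBS_isolated sample, against 172.9 to 793.8 in the samples of the other groups. In bulk tissue, fewer cells of a type and less RNA per cell cannot be told apart.

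RNA of the member subunits differed little between the groups. Neither KA nor housing gave a difference in any of the 10 tested member probe sets that passed the test, limma on log2(signal + 17.05) with p-values adjusted over all 9520 probe sets tested and a threshold of 0.05. Passing members numbered 0 in each of 7 comparisons, and the smallest adjusted p of a member was 0.658. Over the 4 comparisons of 2 groups, the members' log2 differences ran from -0.233 to 0.184. The 95% interval of Ppp2r2c was the widest and reached -0.566, while those of the other 9 probe sets lay between -0.38 and 0.386.

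**Figure D1:**
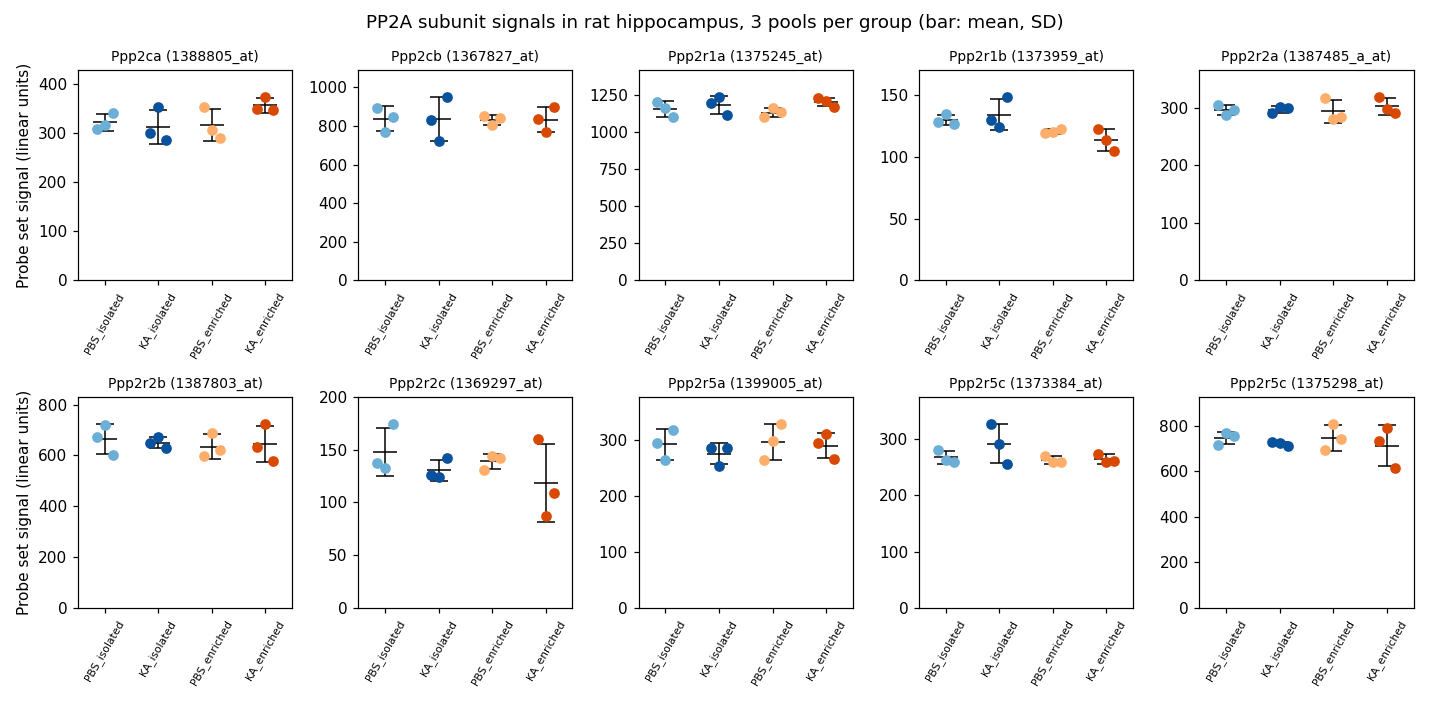
Signal of the 10 tested PP2A subunit probe sets (vertical axes, linear units from 0) in the 4 groups of 3 pools. Points are pools and bars are means with SD. For Ppp2r1b the 6 enriched pools, at 105.2 to 122.6, lie below the 6 isolated pools, at 124.6 to 148.5, whereas Ppp2r1a stays between 1097 and 1233.

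The background of calls was equally low. With adjusted p below 0.05, 0.0105% of all probe sets tested were called for KA in isolated rats, 0% for KA in enriched rats and 0.0105% for KA over both housings. For housing the shares were 0.0105% after PBS, 0% after KA and 0.021% over both treatments, and for the interaction, the KA effect in enriched minus that in isolated rats, 0%. At an unadjusted p below 0.05, the members called were 0 of 10 in the 3 KA comparisons, where 4.31%, 4.98% and 4.31% of all probe sets were called. For housing they were 0 of 10 after PBS (4.21% of all), 1 of 10 after KA (7.02%) and 1 of 10 over both treatments (5.64%), and 0 of 10 for the interaction (4.97%). The single member was Ppp2r1b in both cases. The members' median absolute log2 difference was 0.043 for KA in isolated rats, against 0.065 over all probe sets. The corresponding values were 0.056 against 0.073 for KA in enriched rats, 0.026 against 0.067 for housing after PBS and 0.049 against 0.078 for housing after KA. For KA over both housings the members had the larger median, 0.057 against 0.048. For housing over both treatments it was 0.042 against 0.054, and for the interaction 0.054 against 0.102. The members' median SD within groups was 0.11 on the log2 scale, against 0.123 over all probe sets tested.

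**Figure D2:**
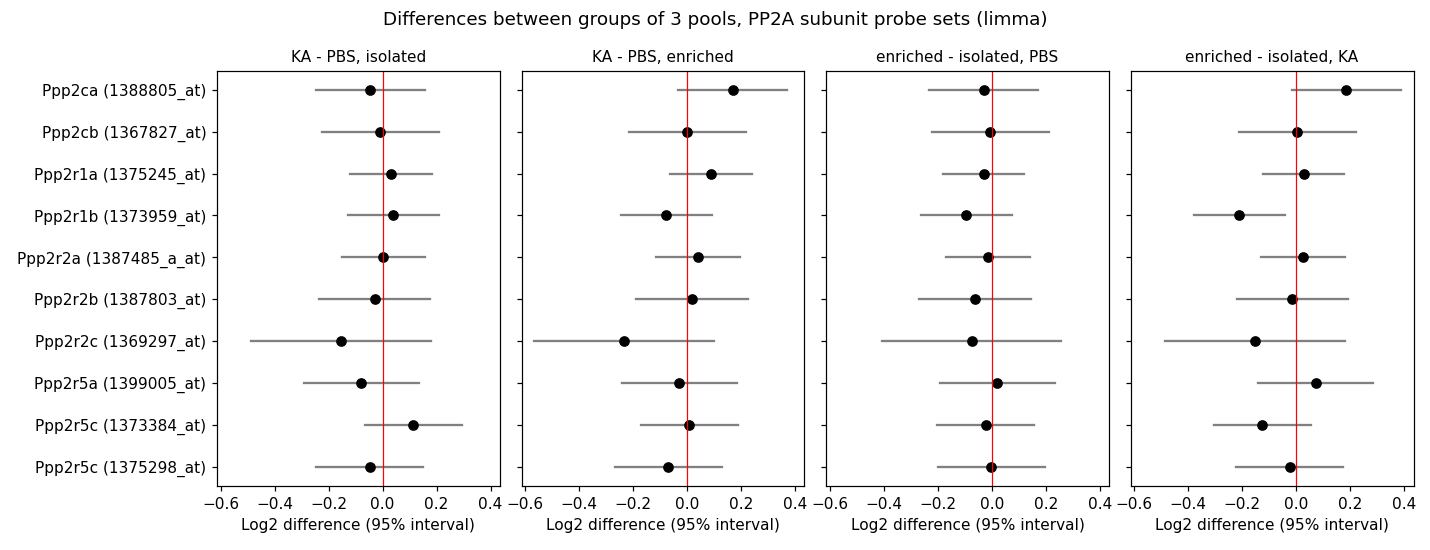
Log2 differences (horizontal axes) of the 10 tested PP2A subunit probe sets in the 4 comparisons of 2 groups, each with its 95% interval from limma (grey line). Only the interval of Ppp2r1b for enriched against isolated rats after KA, from -0.38 to -0.043, leaves out 0 before adjustment for multiple tests.

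The catalytic subunits are encoded by Ppp2ca (alpha isoform) and Ppp2cb (beta isoform), whose proteins are nearly identical. The promoters of 8 of the 10 listed genes were in the RefSeq table for GRCr8, in windows from 250 bases before to 50 bases after an annotated start. The windows shown are that of Ppp2ca as the gene of the main catalytic isoform and that of Ppp2r1b as the member whose signal separated the housings. They lie at chr10:36858787-36859086 and chr8:60092309-60092608, both on the plus strand. Capitals mark the palindrome TGACGTCA, the cyclic AMP response element bound by the activity-regulated factor CREB.
Ppp2ca: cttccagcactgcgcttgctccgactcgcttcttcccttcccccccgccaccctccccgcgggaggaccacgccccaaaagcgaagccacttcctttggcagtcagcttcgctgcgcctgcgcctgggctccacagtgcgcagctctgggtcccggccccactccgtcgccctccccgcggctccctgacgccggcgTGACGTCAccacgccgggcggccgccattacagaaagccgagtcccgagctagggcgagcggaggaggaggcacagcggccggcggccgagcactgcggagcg
Ppp2r1b: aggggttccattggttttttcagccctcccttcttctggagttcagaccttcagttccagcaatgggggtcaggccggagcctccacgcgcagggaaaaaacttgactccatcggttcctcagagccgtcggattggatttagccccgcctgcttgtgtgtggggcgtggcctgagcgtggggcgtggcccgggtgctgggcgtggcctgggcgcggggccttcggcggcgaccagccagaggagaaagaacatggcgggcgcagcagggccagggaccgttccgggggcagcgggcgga

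In the Ppp2ca window the element lies at positions -53 to -46 from the annotated start of that window. This start lies inside the gene, downstream of where the gene begins. The element is present in 1.83% of the 33469 windows of the table. No other member window held it. The motif GCGNGGGCG of the Egr factors, searched on both strands, was found in the Ppp2r5a window only, and in 4.98% of all windows. These windows hold 35 CpG dinucleotides for Ppp2ca, 23 for Ppp2r1b and for Set, 32 for Ppp2r1a, 38 for Ppp2r2c and 48 for Ppp2r5a. The Ppp2r5c window holds 8, and the 3 windows of Ppp2r2b hold 2, 7 and 9, against a median of 7 over all windows. The windows of Ppp2r5c and Ppp2r2b lie at annotated starts inside these genes, far from where the genes begin. No window was available where either gene begins, so these counts do not describe that region. A match describes these letters and is not evidence of binding.

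Signal of the Ppp2ca probe set 1388805_at was 309.0, 317.4 and 341.9 in the isolated PBS pools, 300.3, 353.2 and 286.3 in the isolated KA pools, 353.0, 306.7 and 290.1 in the enriched PBS pools and 349.8, 374.0 and 347.4 in the enriched KA pools. The KA_enriched pools were thus among the higher ones, but the highest pools of the other groups, at 341.9, 353.2 and 353.0, lay within the same range or close to it. The KA effect in enriched rats was a log2 difference of 0.169 (SE 0.093, adjusted p = 0.933, limma), and the housing effect after KA was 0.184 (SE 0.093, adjusted p = 0.74, limma). The interaction, at 0.214 (SE 0.132, adjusted p = 0.96), was the member value of smallest unadjusted p in that comparison and did not pass. Over both treatments the housing effect was 0.077 (SE 0.066, adjusted p = 0.893), and it ran from 0.039 without PBS_enriched replicate 1 to 0.12 without KA_isolated replicate 2. The KA effect in enriched rats ran from 0.111 without PBS_enriched replicate 3 to 0.246 without PBS_enriched replicate 1.

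A second probe set for the catalytic alpha subunit, 1398790_at, is annotated to both Ppp2ca and Ppp2cal1, a gene the annotation lists beside it, and therefore counts as no member. Its signal was 1213 ± 36.6 (SD, n = 3) in the isolated PBS pools, 1248 ± 20.8 in the isolated KA pools, 1213 ± 15.1 in the enriched PBS pools and 1235 ± 97.3 in the enriched KA pools. Here the housing effect after KA was -0.017 (95% interval -0.173 to 0.138), opposite in sign to that of the Ppp2ca probe set, which had an interval of -0.017 to 0.386. The 2 values were not tested against each other. The Ppp2cb probe set gave group means within 832.2 to 836.9, with SDs of 25.0 to 112.6. Its log2 differences lay between -0.009 and 0.003 in the 4 comparisons of 2 groups, each with an SE of 0.1, so the pools of 1 group differed far more than the groups did.

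Of the scaffold subunits, Ppp2r1a, the alpha isoform, was the steadiest member after Ppp2r2a, with a coefficient of variation of 4.15% over the 12 pools. Its signal was 1202, 1161 and 1099 in the isolated PBS pools, 1195, 1233 and 1111 in the isolated KA pools, 1097, 1162 and 1130 in the enriched PBS pools and 1226, 1209 and 1170 in the enriched KA pools. Within enriched rats the KA pools lay above the PBS pools with no overlap, by a log2 difference of 0.088 (SE 0.07, adjusted p = 0.942, limma). Over both housings the KA effect was 0.06 (SE 0.05, adjusted p = 0.996). It ran from 0.032 after quantile normalization to 0.081 without KA_isolated replicate 3. Separation of KA from PBS in enriched rats was seen in 9.62% of all probe sets and in 1 of the 10 members. In isolated rats 0 members separated KA from PBS (10.8% of all probe sets), and 0 separated the 6 KA from the 6 PBS pools (0.105% of all).

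Ppp2r1b, the beta isoform of the scaffold, had its lower signals in the enriched rats. Its signal was 128.3, 134.8 and 126.9 in the isolated PBS pools, 130.2, 124.6 and 148.5 in the isolated KA pools, 119.6, 119.9 and 122.6 in the enriched PBS pools and 122.4, 113.5 and 105.2 in the enriched KA pools. All 6 enriched pools lay below all 6 isolated pools, though the nearest 2 pools were only 122.6 and 124.6 signal units. Of the 10 members 1 separated the housings this way, against 0.305% of all probe sets, that is 29 of 9520. Within PBS rats 1 of 10 members separated (11.6% of all), and within KA rats 1 of 10 (10.8% of all), Ppp2r1b in both.

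Over both treatments the housing effect on Ppp2r1b was a log2 difference of -0.153 (SE 0.055, 95% interval -0.272 to -0.033), or 0.8997-fold. It did not pass over all probe sets (adjusted p = 0.832, limma). The effect was -0.211 (SE 0.078, adjusted p = 0.658) after KA and -0.094 (SE 0.078, adjusted p = 0.998) after PBS. The difference between these, the interaction, was -0.118 (SE 0.111, adjusted p = 0.961). It ran from -0.165 to -0.052 over the alternative settings, the latter without KA_isolated replicate 3. The lowest Ppp2r1b signal was that of KA_enriched replicate 3, the array that stood apart. Without that array the effect over both treatments was -0.129 (adjusted p = 0.679), and with the beta-actin ratio as a covariate it was -0.121 (adjusted p = 0.907). RefSeq lists a pseudogene of Ppp2r1b, as it does for Ppp2ca, Ppp2cb, Ppp2r1a, Ppp2r5c and Set. Whether these probe sets also bind such copies was not tested.

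The B55 regulatory subunits include the widely expressed Ppp2r2a and the brain-enriched Ppp2r2b and Ppp2r2c. Ppp2r2a (1387485_a_at) stayed between 279.6 and 318.3 in all 12 pools, with a coefficient of variation of 4.01%, and its log2 differences in the 4 comparisons of 2 groups ran from -0.014 to 0.041. The dim second probe set of Ppp2r2a (1369221_at) ran from 3.108 to 28.2 and was not tested. Ppp2r2b, mutated in a form of spinocerebellar ataxia, ran from 579.6 to 722, with both ends in KA_enriched. Its largest difference between 2 groups was -0.062 for housing after PBS (SE 0.095, adjusted p = 0.998), which ran from -0.132 without PBS_isolated replicate 3 to -0.004 without PBS_isolated replicate 2.

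Ppp2r2c varied most among the tested members, with a coefficient of variation of 16.6% over the 12 pools. Its signal was 137.1, 133.1 and 174.2 in the isolated PBS pools, 125.9, 124.1 and 141.8 in the isolated KA pools, 130.9, 144.3 and 141.8 in the enriched PBS pools and 159.9, 87.48 and 109.2 in the enriched KA pools. KA_enriched therefore held the lowest pool and the second highest of all 12. The KA effect over both housings was a log2 difference of -0.194 (SE 0.109, adjusted p = 0.996, limma), with -0.155 (SE 0.154, adjusted p = 0.999) in isolated and -0.233 (SE 0.154, adjusted p = 0.936) in enriched rats. The value in enriched rats ran from -0.44 without KA_enriched replicate 1 to -0.061 without KA_enriched replicate 2. That in isolated rats ran from -0.22 without PBS_isolated replicate 2 to -0.045 without PBS_isolated replicate 3. KA and PBS pools overlapped in both housings. The second Ppp2r2c probe set (1389855_at) had signals of 0.763 to 3.515 and was not tested.

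The B56 subunits Ppp2r5a and Ppp2r5c bind phosphorylated and kinase-regulated targets. Ppp2r5a had group means of 293.0 ± 27.7 (SD, n = 3) in the isolated PBS pools, 275.9 ± 19.0 in the isolated KA pools, 297.5 ± 32.4 in the enriched PBS pools and 290.8 ± 22.8 in the enriched KA pools. Its KA effect in isolated rats, -0.08 (SE 0.099, adjusted p = 0.999), was smaller than the spread between pools and ran from -0.148 without PBS_isolated replicate 2 to -0.019 without PBS_isolated replicate 3. Both probe sets of Ppp2r5c were tested and differed in sign for KA in isolated rats, at 0.113 (SE 0.083, adjusted p = 0.999) for 1373384_at and -0.048 (SE 0.092, adjusted p = 0.999) for 1375298_at. The first had 326.3, 292.3 and 256.7 in KA_isolated and stayed between 259.0 and 280.2 in the other 9 pools, so its higher mean came from 2 pools. Without KA_isolated replicate 1 the KA effect was 0.033, and without replicate 3 of that group it was 0.197. The same probe set gave 0.061 (SE 0.059, adjusted p = 0.996) for KA over both housings and -0.127 (SE 0.083, adjusted p = 0.791) for housing after KA. For housing over both treatments it gave -0.075 (SE 0.059, adjusted p = 0.889), and for the interaction -0.105 (SE 0.118, adjusted p = 0.969). These values share the KA_isolated pools and moved with the same 2 of them, housing after KA from -0.211 to -0.048. The second probe set had its lowest signal, 614.4, in KA_enriched replicate 3, and 691.9 to 804.9 in the other 11 pools.

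Set, the inhibitor, had no probe set of its own symbol. The probe set 1372461_at is annotated to Setsip, a Set-like gene on another chromosome for which RefSeq lists Set as a synonym, and whether it binds Set RNA was not tested. Its signal ran from 609.2 to 795.7, with group means of 678.1 ± 51.3 (SD, n = 3) in the isolated PBS pools, 717.0 ± 95.5 in the isolated KA pools, 676.9 ± 70.8 in the enriched PBS pools and 665.4 ± 57.5 in the enriched KA pools. The groups overlapped, and its largest difference between 2 groups was -0.1 for housing after KA (SE 0.111, adjusted p = 0.885).

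Anp32a, the other inhibitor, was the 1 gene around PP2A that passed. Its signal was 385.5, 331.2 and 458.6 in the isolated PBS pools, 167.5, 162.2 and 132.5 in the isolated KA pools, 126.7, 132.4 and 158.7 in the enriched PBS pools and 115.7, 83.72 and 98.37 in the enriched KA pools. It fell by 1.251 on the log2 scale with KA in isolated rats (SE 0.134, adjusted p = 0.0036, limma). With enriched housing after PBS it fell by 1.381 (SE 0.134, adjusted p = 0.00115, limma). Both comparisons share the PBS_isolated pools, which were the high ones. The KA effect in enriched rats, -0.43 (SE 0.134, adjusted p = 0.933), and the housing effect after KA, -0.56 (SE 0.134, adjusted p = 0.537), did not pass. In KA against PBS in isolated rats and in housing after PBS, the log2 differences of Ppp2ca were -0.045 and -0.03, those of Ppp2cb -0.009 and -0.006, and those of Ppp2r1a 0.031 and -0.03.

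**Figure D3:**
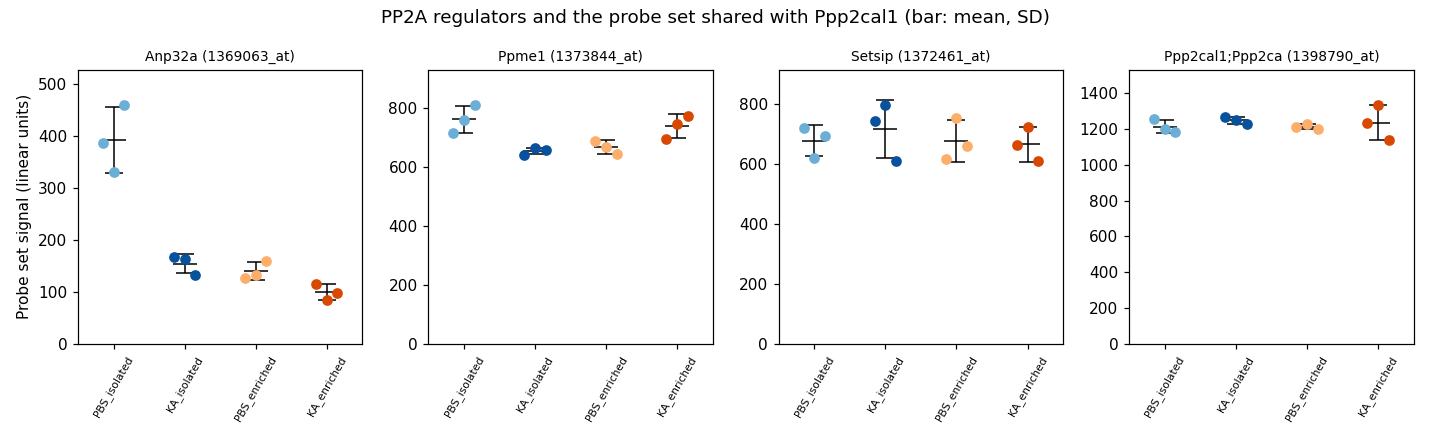
Signal (vertical axes, linear units from 0) of Anp32a, Ppme1, Setsip and the probe set shared by Ppp2cal1 and Ppp2ca in the 4 groups of 3 pools, with means and SD. Anp32a is highest in the 3 PBS_isolated pools (331.2 to 458.6), while the shared Ppp2ca probe set stays between 1138 and 1332.

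The wider PP2A system was read from a list of 24 further subunits, assembly factors, modifying enzymes and inhibitors. Of these 19 were on the array and 18 were tested, 1 probe set per gene. In each comparison where Anp32a passed (KA in isolated rats, KA over both housings, housing after PBS and housing over both treatments), it was the 1 lower gene of the list that passed, and 0 were higher. The call for KA over both housings was lost without the filter on dim probe sets (adjusted p = 0.0551), while the other 3 calls held in every alternative tried. In the other 3 comparisons 0 of 18 passed. At an unadjusted p below 0.05, 2 of 18 were lower for KA in isolated rats (4.31% of all probe sets called in either direction), 1 was lower in enriched rats (4.98%) and 1 over both housings (4.31%). For housing 3 were lower after PBS (4.21%), and 2 were higher and 3 lower after KA (7.02%). Over both treatments 1 was higher and 2 were lower (5.64%). The higher one was the B56 subunit Ppp2r5b, at 0.27 (SE 0.089, adjusted p = 0.832, limma). It had 0.303 after KA (SE 0.126, adjusted p = 0.67), above every member in that comparison. The lower ones over both treatments were Anp32a and Anp32e, the latter at -0.204 (SE 0.057, adjusted p = 0.684). For the interaction 2 were higher (4.97%). Anp32a is among these genes in all 7 comparisons. The list's median log2 difference was 0.002 for housing after PBS, -0.068 after KA and -0.029 over both treatments, against 0.003, 0.003 and 0.002 for all probe sets. For KA it was -0.009 in isolated and -0.024 in enriched rats, against -0.005 and -0.003.

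Ppme1, the methylesterase that removes the methyl group from the end of the catalytic subunit, came second in this list by unadjusted p in 3 of the 4 comparisons of 2 groups and in the interaction. Its signal was 715.4, 759.0 and 808.5 in the isolated PBS pools, 640.7, 662.8 and 657.9 in the isolated KA pools, 688.8, 668.8 and 642.5 in the enriched PBS pools and 693.2, 745.3 and 773.5 in the enriched KA pools. KA pools were the lower ones in isolated rats and the higher ones in enriched rats, with no overlap in either. Of all probe sets, 10.8% separated KA from PBS in isolated rats and 9.62% in enriched rats. The KA effect was -0.212 (SE 0.073, adjusted p = 0.999) in isolated and 0.141 (SE 0.073, adjusted p = 0.933) in enriched rats, and the interaction was 0.353 (SE 0.103, adjusted p = 0.91, limma). None of these values passed. Housing gave -0.185 after PBS (SE 0.073, adjusted p = 0.998) and, with the opposite sign, 0.168 after KA (SE 0.073, adjusted p = 0.684), which left -0.009 over both treatments (SE 0.051, adjusted p = 0.991).

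Tiprl, a protein that binds the catalytic subunits of the PP2A family, was second for housing after KA, with a log2 difference of -0.412 (SE 0.149, adjusted p = 0.645, limma). Its signal was 72.09, 58.84 and 106.1 in KA_isolated and 59.24, 56.02 and 46.4 in KA_enriched, and the groups overlapped. In PBS_isolated it was 71.18, 75.13 and 58.55, and in PBS_enriched 60.77, 74.75 and 69.61.

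**Figure D4:**
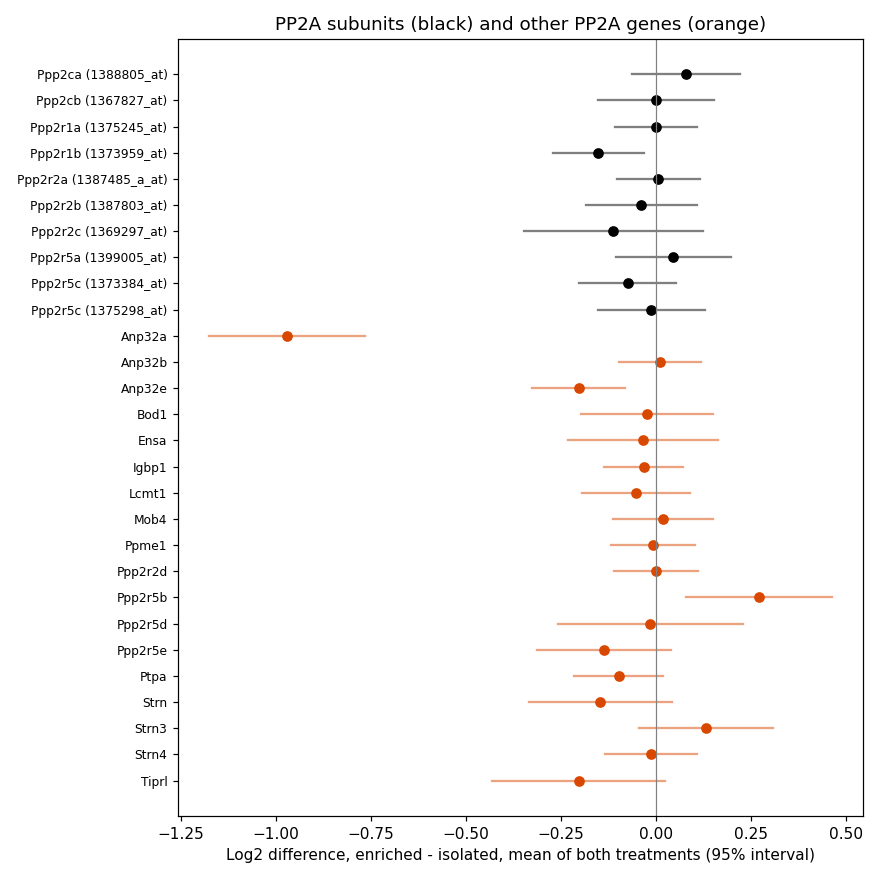
Log2 difference between enriched and isolated rats over both treatments (horizontal axis) with its 95% interval, for the 10 tested PP2A subunit probe sets (black) and 18 further PP2A genes (orange). Anp32a lies at -0.97 and is the 1 value that passed. Ppp2r1b at -0.153 is the lowest of the values in black, and the further subunit Ppp2r5b lies at 0.27.

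Among catalytic subunits of related phosphatases, no gene passed either. Of 9 genes 8 were tested, and 0 passed in any of the 7 comparisons. None had an unadjusted p below 0.05, against 4.21% to 7.02% of all probe sets. That share is too small for 0 of 8 to set these genes apart. The values of smallest unadjusted p were those of Ppp3ca, a catalytic subunit of calcineurin (-0.028, SE 0.07), and Ppp6c (0.05, SE 0.134) for KA in isolated rats. For KA in enriched rats they were those of Ppp5c (0.196, SE 0.114) and Ppp1ca, a catalytic subunit of protein phosphatase 1 (-0.13, SE 0.076). For housing Ppp4c, a PP2A-like phosphatase, had -0.081 after PBS and -0.1 after KA, both with an SE of 0.104, with Ppp5c (-0.086, SE 0.114) after PBS and Ppp1ca (-0.12, SE 0.076) after KA.

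Known PP2A substrates and the kinases of their pathways were represented by 12 tested genes of 16, and 0 passed in any comparison. At an unadjusted p below 0.05, 1 of 12 was higher for KA in enriched rats, Gsk3a (4.98% of all probe sets called in either direction). For housing 1 was lower after KA (7.02%) and 1 over both treatments (5.64%), Axin1 in both cases. The other comparisons had 0. For housing after KA, Axin1, a scaffold of the beta-catenin destruction complex, had a log2 difference of -0.202 (SE 0.073, adjusted p = 0.642, limma), followed by the kinase gene Gsk3a with 0.14 (SE 0.09). After PBS, Axin1 had -0.141 (SE 0.073) and Ppp1r1b, a phosphatase inhibitor of dopamine signalling, 0.191 (SE 0.126). Over both treatments Axin1 had -0.171 (SE 0.051, adjusted p = 0.832, limma). Axin1 signal was 111.7 to 122.6 in the isolated pools and 94.61 to 112.5 in the enriched pools, which overlapped through 1 KA_enriched pool. For KA, Gsk3a had 0.219 in enriched rats (SE 0.09, adjusted p = 0.933), and the transcription factor gene Foxo1 had -0.221 (SE 0.13) in isolated and -0.163 (SE 0.13) in enriched rats. Ctnnb1, beta-catenin, had 0.105 (SE 0.114) in isolated rats.

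Over the 12 pools, the genes whose log2 signal followed Ppp2r1b most closely were Pcmtd2 (Pearson r = 0.926, Spearman rho = 0.741) and B4gat1 (r = 0.887, rho = 0.923). Those closest to Ppp2r2c were Sdhaf1 (r = 0.886, rho = 0.874) and Lmo3 (r = 0.882, rho = 0.734). These are the highest of the correlations with all other tested probe sets of named genes, given as a description, and the pools share group, array scaling and RNA quality.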

How the data were processed

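The deposited table holds 1 probe set signal per array, an intensity on a linear scale, for 15923 probe sets. Summary method and software are not given in the sources used here, and array medians are near-equal as deposited. Values were used as deposited.

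The 57 control probe sets were left out and log2(signal + 17.05) was taken, 17.05 being the 20th percentile of the table, which understates fold changes of dim genes. The 60% with the highest mean (9520) entered limma 3.58.1 (R 4.3.3), with 1 mean per group over all 12 samples, 13.07 total degrees of freedom, and two-sided p-values adjusted by Benjamini-Hochberg over all 9520. Names came from the supplied array annotation, in which 12789 probe sets have 1 symbol, 312 several, and 2822 are unlisted; 12754 were matched to RefSeq, which changed 0 symbols. The procedure was tested on simulated data with independent noise and differences larger than any measured for a member. That test does not show how differences as small as the members' would be recovered. The number of arrays limits the precision. No level of one probe set was set against that of another.

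Log2 differences were given for the 3 members of smallest unadjusted p in each comparison, others by range or where a sentence names them, and for the 2 of smallest p per list in comparisons of 2 groups. Other member and Ppme1 values, those of Ppp2r5b, Anp32e, Setsip and the shared Ppp2ca probe set, and that of Axin1 over both treatments, were chosen after values were seen. The members and lists were chosen with earlier results of these data known. Alternatives covered normalization, pseudocount, filter, covariates, weights, the groups fitted and each sample left out.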

Additional observations from a re-analysis of the deposited data

How the results depend on the processing

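In all 151 combinations of a comparison and an alternative setting, the number of member probe sets passing stayed at 0. Many of these combinations come from the same refit. Leaving out a sample of a group outside a comparison of 2 groups cannot move its difference. The 21 member differences of smallest p kept their direction in 452 of 453 such values, and none passed (smallest adjusted p 0.392, for Ppp2r1b without KA_enriched replicate 1). The exception was Ppp2r2c for housing after PBS, -0.075 over all samples and, with a sample left out, -0.139 (without PBS_isolated replicate 2) to 0.035 (without PBS_isolated replicate 3). Ppp2r1b ranged from -0.176 to -0.12 for housing over both treatments. Over all probe sets, 5 passed for KA in isolated rats with only these groups fitted, against 1, and 0 for KA over both housings without a filter, against 1, the lost call being Anp32a (adjusted p = 0.0551). For housing after PBS 2 passed, against 1, with the 40% brightest probe sets and with array weights, and 1 to 2 with a sample left out (2 without PBS_isolated replicate 2). For housing after KA 0 to 1 passed with a sample left out, 1 without PBS_enriched replicate 3 or KA_enriched replicate 1. For housing over both treatments 1 passed, against 2, with equal medians, a pseudocount of 1, array weights, the beta-actin covariate or the replicate block, and 1 to 2 with a sample left out, 2 only without KA_enriched replicate 1. The cause was not tested. Same-numbered samples of different groups had residual correlations of -0.072 to 0.199 (median 0.056), and different-numbered ones -0.142 to 0.101 (median -0.015). Of 12 samples, 7 correlated best with their own number. Whether the numbers mark a shared step was not tested, and the main fit did not take them as pairs. With the replicate block Ppp2r1b over both treatments was -0.153 (adjusted p = 0.756). Arrays without detection calls leave dim probe sets unresolved.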
